A study of Mus musculus with 20 samples.

Results

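The comparison described here sets 6 single mouse embryos treated with a small interfering RNA (siRNA) against Klf5 beside 10 treated with a scramble siRNA, 16 of the 20 samples of the series. Members were taken by their labels, whose titles name E4.5 (embryonic day 4.5, a late blastocyst), with 1 polyadenylated-RNA library per embryo. The labels give the embryos as harvested from C57BL/5J mice (spelled so in the labels) and cultured in KSOM medium with BSA under oil at 5% CO2 and normoxia, for both groups. No genotype other than the siRNA, no dose, no time of treatment and no litter is given, so it is not known which embryos shared a mother. The other 4 samples are stem cell libraries, which are not analysed here. The question put by the design is which transcripts differ when Klf5 is lowered before implantation.

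Klf5 encodes a Krüppel-like zinc-finger transcription factor that binds CACCC-type and GC-rich promoter letters. The late blastocyst holds an outer epithelium, the trophectoderm, which pumps fluid and later forms placenta, and an inner cell mass that separates into epiblast and primitive endoderm. Klf5 is known to be needed in mouse blastocysts for trophectoderm and to restrain primitive endoderm. Whole embryos were sequenced, so fewer cells of a type and less RNA per cell cannot be told apart in any value below.

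Libraries held 14701519 to 24939629 estimated counts and 13114 to 15568 detected genes, and a count of 0 allows up to 0.120 to 0.204 CPM (counts scaled to library size), for counting error only. The share of counts from mitochondrially encoded genes was 5.02% ± 2.78 (SD, n = 6) in Klf5 siRNA embryos and 12.1% ± 4.84 (n = 10) in scramble embryos (two-sided exact permutation test, p = 0.00724, adjusted p = 0.0145 over 6 library measures). Ribosomal protein transcripts took 11.4% ± 2.42 against 7.29% ± 1.75 of counts (exact permutation p = 0.00125, adjusted p = 0.00375). The slope of log2 CPM on transcript length, per doubling of length, was -0.207 ± 0.0634 against 0.124 ± 0.101, with no overlap between groups (exact permutation p = 0.000125, adjusted p = 0.000749). Total counts (exact permutation p = 0.964) and detected genes (p = 0.258) did not pass. Numbers in the labels' descriptions are all higher for Klf5 siRNA than for scramble embryos. The labels do not say what these numbers record, so whatever they record and the treatment cannot be told apart. Klf5 siRNA embryos 2 and 4 had the most extreme scores on principal component 1 (23.57% of variance) and scramble embryos 5 and 6 stood apart on component 2 (14.03%). Summed transcripts of 4 Y-linked genes were over 20 CPM in 3 of 6 Klf5 siRNA and 6 of 10 scramble embryos. In the other embryos they were at or under 8.59 CPM.

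Klf5 transcript (ENSMUSG00000005148, GRCm38 chromosome 14, 99298691 to 99315036) was lower in 5 of 6 Klf5 siRNA embryos. Klf5 siRNA embryos 1 to 6 held 543, 111, 195, 80.8, 117 and 292 CPM. Scramble embryos ranged from 382 to 592 CPM with a median of 472. The embryo labelled Klf5 siRNA 1 lay inside the scramble range, against what its label says, while the other 5 lay below every scramble embryo. Klf5 fell 2.10-fold (log2 fold change -1.07 ± 0.33 SE, edgeR quasi-likelihood test with Benjamini-Hochberg adjustment, adjusted p = 0.0273), from 469 ± 65.7 to 223 ± 174 CPM (SD). The difference in mean log2 CPM was -1.38 (two-sided exact permutation test over 8008 arrangements, p = 0.00137). Without the embryo labelled Klf5 siRNA 1 the Klf5 level difference was -1.56 (edgeR adjusted p = 0.00130), and it missed the threshold without Klf5 siRNA embryo 2, 3, 4 or 5 (adjusted p from 0.0509 to 0.0672) and with a length offset (-0.87, adjusted p = 0.0683). That embryo is kept under its label throughout.

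Cdx2, the homeobox factor that specifies trophectoderm (chromosome 5, 147300805 to 147307270), was at 18.1, 0.364, 10.8, 1.40, 2.89 and 16.7 CPM in Klf5 siRNA embryos 1 to 6. Scramble embryos held 14.8 to 132 CPM with a median of 29.1. Embryos 1 and 6 reached the low end of the scramble range and the other 4 lay below it. Cdx2 fell 5.41-fold (log2 fold change -2.44 ± 0.70 SE, adjusted p = 0.0196). Scramble embryos 5 and 6 held 110 and 132 CPM, and without them the Cdx2 log2 fold change was -1.71 (adjusted p = 0.0515), as it was -1.89 (adjusted p = 0.0503) without Klf5 siRNA embryos 2 and 4.

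Cdkn1a, which encodes the cyclin-dependent kinase inhibitor p21 (chromosome 17, 29090976 to 29100727), was at 268, 663, 360, 528, 238 and 210 CPM in Klf5 siRNA embryos 1 to 6. Scramble embryos held 19.1 to 110 CPM with a median of 55.8. All Klf5 siRNA embryos lay above all scramble embryos. Cdkn1a rose 6.64-fold (log2 fold change 2.73 ± 0.35 SE, adjusted p = 5.2e-05).

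**Figure D1:**
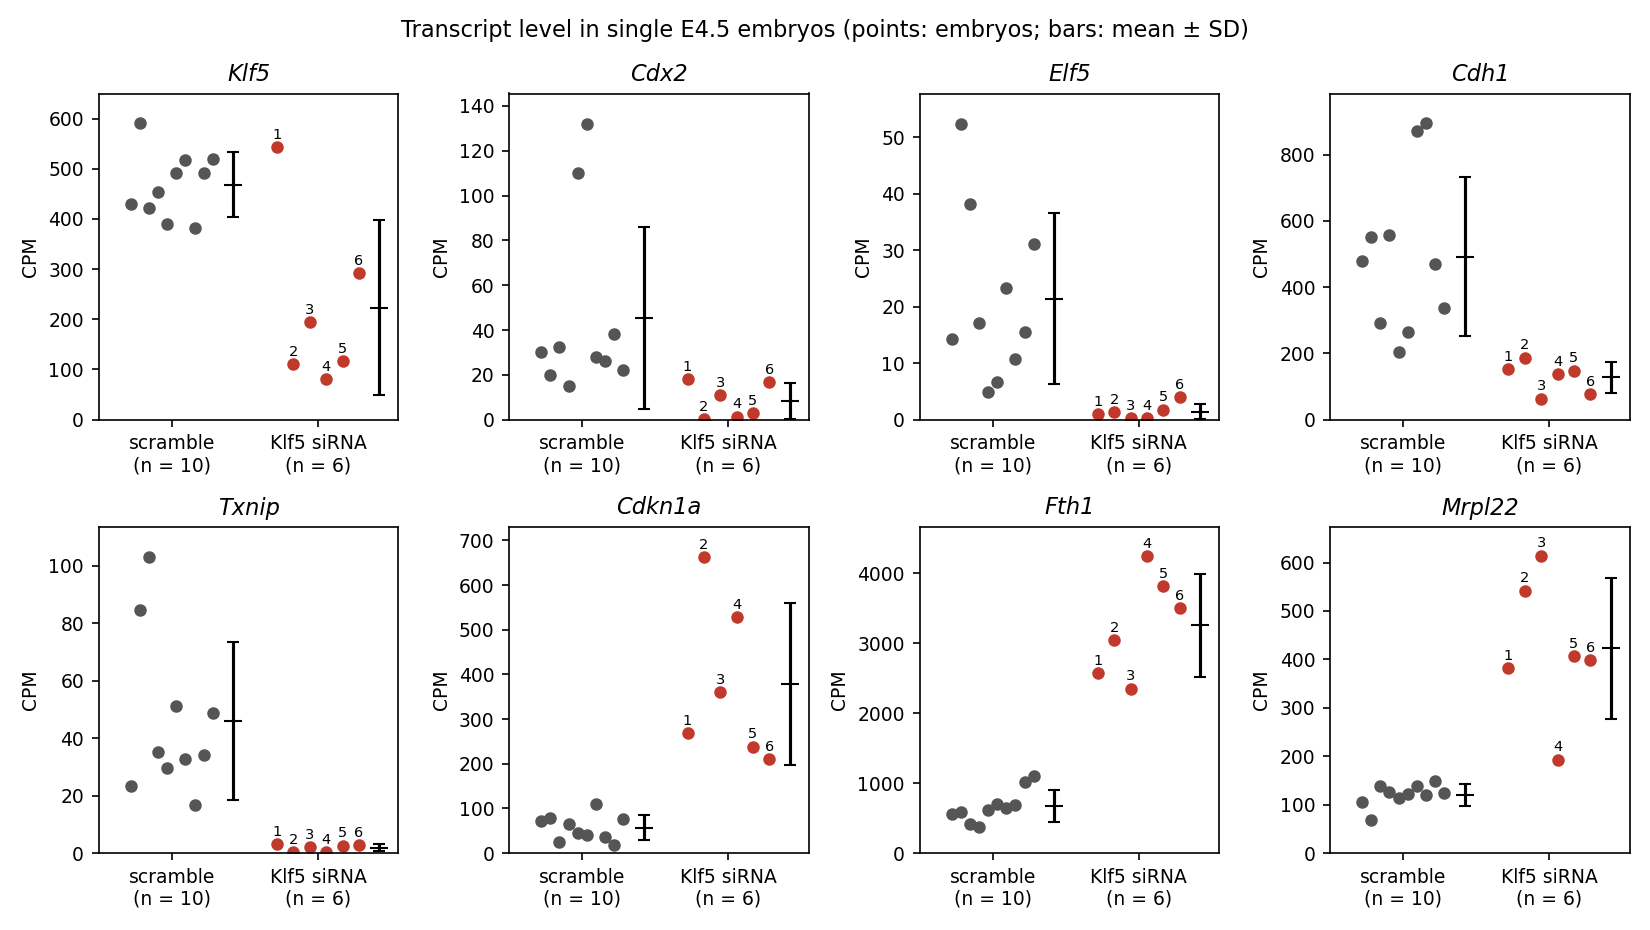
Transcript level in CPM (vertical axes, linear from 0) of 8 genes in single E4.5 embryos, with scramble embryos in grey, Klf5 siRNA embryos in red and numbered, and bars for mean ± SD. Klf5 siRNA embryo 1 stands at 543 CPM for Klf5, inside the scramble range of 382 to 592, while for Elf5, Cdh1, Txnip, Cdkn1a, Fth1 and Mrpl22 the groups do not overlap.

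Over all 12385 genes tested, 1489 were higher in Klf5 siRNA embryos (12.0%) and 958 lower (7.74%), of which 1191 and 762 differed by at least 2-fold. All Klf5 siRNA embryos lay above all scramble embryos for 360 genes (2.91%) and below all of them for 236 (1.91%). The median log2 fold change over all genes was -0.00646, and 4112 genes had an unadjusted p under 0.05. Differences between single embryos were wide (common biological coefficient of variation 0.739). On simulated counts over 12385 genes, 66% of genes changed 8-fold and 42% of those changed 4-fold were recovered, against 4% at 2-fold. The simulation changed 50 genes at each fold tried and led to 57 calls, far fewer than in the data. Its adjusted threshold was thus stricter, and these shares do not give the recovery in the data.

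The 12 genes that rose with the smallest p are described first. Fth1, the ferritin heavy chain that stores iron, went from 373 to 1096 CPM (median 631) in scramble embryos to 2349 to 4242 CPM (median 3268) in Klf5 siRNA embryos. Fth1 rose 4.85-fold (log2 fold change 2.28 ± 0.24 SE, adjusted p = 1.8e-05). Sat1, which acetylates polyamines for breakdown, rose 6.51-fold to a median of 3331 CPM. Map1lc3b, the autophagosome membrane protein LC3B, rose 4.51-fold from a median of 2767 to 15024 CPM. For these 3 genes no Klf5 siRNA embryo overlapped a scramble embryo. Pemt, which makes phosphatidylcholine by methylation, rose 7.10-fold, and Cyb5a, a cytochrome b5 that carries electrons to lipid enzymes, 8.69-fold. Ppp1r14a, an inhibitor of myosin phosphatase, rose 10.9-fold from a median of 10.8 to 112 CPM. Gstp1 (glutathione transferase, 5.08-fold), Fdx1 (mitochondrial ferredoxin, 4.10-fold), Rnf7 (a RING subunit of cullin ubiquitin ligases, 4.62-fold), Cenpm (a centromere protein, 4.37-fold), Rpain (an importer of replication protein A, 5.14-fold) and Ypel5 (6.05-fold) completed the 12 leading genes, with adjusted p from 1.8e-05 to 4.6e-05.

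Of the genes that fell, those with the smallest p follow. Txnip, which binds thioredoxin and limits glucose uptake (chromosome 3, 96557957 to 96561883), was at 0.280 to 3.18 CPM (median 2.32) in Klf5 siRNA embryos and 16.9 to 103 CPM (median 34.7) in scramble embryos. Even the highest Klf5 siRNA embryo lay below the lowest scramble embryo. Txnip fell 24.5-fold (log2 fold change -4.62 ± 0.57 SE, adjusted p = 4.6e-05). Aldh18a1, the enzyme that commits glutamate to proline synthesis, fell 4.96-fold from a median of 41.9 to 7.95 CPM (adjusted p = 0.000111). Slc16a1, a lactate and pyruvate transporter, fell 4.75-fold, and Hibadh, an enzyme of valine breakdown, 3.95-fold. Msn (moesin, which ties actin to the membrane, 3.61-fold), Mpp7 (a polarity scaffold, 3.01-fold) and Ildr1 (a protein of tricellular junctions, 4.61-fold) also fell. Capn2 (calpain, 4.91-fold), Ptprg (a receptor tyrosine phosphatase, 5.46-fold), Nxf7 (7.26-fold) and Brwd1 (a bromodomain protein, 3.37-fold) were also among the 12 leading genes. In each gene named here every Klf5 siRNA embryo lay below every scramble embryo.

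Promoter windows of 4 of these genes are printed because Klf factors bind CACCC-type and GC-rich letters and because p53, which activates Cdkn1a, binds paired CATG cores. Each is 250 bases before to 50 after a transcription start, from RefSeq on GRCm38.p6, written 5′ to 3′ along the gene's strand. Capitals mark CACCC and GGGCGG on either strand (so also GGGTG and CCGCCC), and both CATG cores of a spaced motif, CATG then any 6 bases then CATG. The genes and, for Cdkn1a, the upstream of its 2 windows were chosen after values were seen, as was the CATG motif after that sequence was read.
Cdx2, chr5:147307200-147307499, minus strand: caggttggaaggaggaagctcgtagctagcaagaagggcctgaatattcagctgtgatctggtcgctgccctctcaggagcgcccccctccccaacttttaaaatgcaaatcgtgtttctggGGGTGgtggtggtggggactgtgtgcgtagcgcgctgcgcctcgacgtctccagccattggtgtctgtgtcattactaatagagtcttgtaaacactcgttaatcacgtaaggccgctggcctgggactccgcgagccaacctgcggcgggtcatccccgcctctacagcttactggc
Txnip, chr3:96557707-96558006, plus strand: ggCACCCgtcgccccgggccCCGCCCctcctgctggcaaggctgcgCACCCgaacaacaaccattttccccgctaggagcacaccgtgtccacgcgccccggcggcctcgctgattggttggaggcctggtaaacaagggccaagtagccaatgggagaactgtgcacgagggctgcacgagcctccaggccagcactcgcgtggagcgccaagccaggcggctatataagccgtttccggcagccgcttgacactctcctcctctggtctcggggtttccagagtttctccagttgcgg
Aldh18a1, chr19:40588414-40588713, minus strand: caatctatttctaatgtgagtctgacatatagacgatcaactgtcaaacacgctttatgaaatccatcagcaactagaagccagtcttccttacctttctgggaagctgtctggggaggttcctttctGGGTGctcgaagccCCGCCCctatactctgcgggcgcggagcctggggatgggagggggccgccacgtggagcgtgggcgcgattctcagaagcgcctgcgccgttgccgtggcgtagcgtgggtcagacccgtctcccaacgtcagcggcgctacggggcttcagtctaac
Cdkn1a, chr17:29090729-29091028, plus strand: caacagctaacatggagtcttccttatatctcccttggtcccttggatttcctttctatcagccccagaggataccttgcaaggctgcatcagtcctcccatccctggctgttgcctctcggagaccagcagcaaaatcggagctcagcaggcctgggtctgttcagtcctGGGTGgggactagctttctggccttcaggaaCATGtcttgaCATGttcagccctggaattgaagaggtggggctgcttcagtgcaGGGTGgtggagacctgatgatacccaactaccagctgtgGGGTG

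The Cdx2 window holds 1 CACCC match, that of Txnip 2 with 1 GGGCGG match, that of Aldh18a1 1 of each, and that of Cdkn1a 3 CACCC matches with 1 match of the spaced CATG motif. The motifs can share bases in principle, and did so at 0 bases in these windows. Over the windows of all 27025 genes in that table, 56.8% hold CACCC, 35.9% hold GGGCGG and 0.766% hold the spaced CATG motif, so the first pair is common. Over the 9449 tested genes that have a window these shares are 62.6%, 63.9% and 0.296%. Of 30 p53 target genes listed, 22 had a window and 1, Cdkn1a, held the CATG motif. These are 9449 of 12385 genes tested, too few for a check of shares among the genes that rose or fell, which is void. A match describes letters and is no evidence of binding.

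More trophectoderm factors fell than rose. Of 22 trophectoderm transcription factors listed, 20 were tested, 7 fell, 1 rose and 12 did not pass, with a median log2 fold change of -0.93 against -0.00646 over all genes. Elf5, an ETS factor that maintains trophoblast progenitors, was at 0.280 to 3.97 CPM (median 1.17) in Klf5 siRNA embryos and 4.83 to 52.4 CPM (median 16.4) in scramble embryos. The groups did not overlap for Elf5, which fell 14.9-fold (log2 fold change -3.89 ± 0.66 SE, adjusted p = 0.000522). Tfap2a, an AP-2 factor, fell 7.07-fold from a median of 43.1 to 4.54 CPM. Eomes, a T-box factor of early trophectoderm, fell 3.09-fold from a median of 72.8 to 20.2 CPM with no overlap (adjusted p = 0.0146). Gata3, which acts beside Cdx2, fell 1.96-fold from a median of 196 to 91.7 CPM (adjusted p = 0.0148), and Elf3, an epithelial ETS factor, 2.05-fold. Gata2 (3.62-fold) also fell. With mitochondrial percent as a covariate, or without Klf5 siRNA embryos 2 and 4, 3 of the trophectoderm transcription factors fell. Tead4, the Hippo-pathway factor upstream of Cdx2 (fold change 1.70 lower, adjusted p = 0.0741), and Tfap2c (adjusted p = 0.192) did not pass. Ascl2, an imprinted factor of later trophoblast, rose 7.64-fold from a median of 0.947 to 12.5 CPM, and did not pass without Klf5 siRNA embryos 2 and 4 (adjusted p = 0.0766).

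Of 21 trophectoderm surface and secreted genes tested (28 listed), 8 fell, 3 rose and 10 did not pass, with a median of -0.94. Lcp1, an actin-bundling plastin, fell 5.91-fold from 181 to 690 CPM (median 286) to 14.9 to 119 CPM (median 51.4), with no overlap. Fgfr2, the receptor through which FGF4 keeps trophoblast dividing, fell 2.97-fold with no overlap, from 70.5 to 194 CPM to 26.3 to 55.9 CPM (adjusted p = 0.000820). Enpep, an aminopeptidase, fell 3.26-fold. Bmp4, a secreted signal, had 0 counts in all 6 Klf5 siRNA embryos and in 1 of 10 scramble embryos (edgeR adjusted p = 0.00233). Scramble embryos held 0 to 7.13 CPM, with a median of 2.64 and a mean of 2.93. That mean was 15.9-fold above a floor of 3 counts per library, a bound for the group mean and not for each embryo. Bmp4 missed the threshold with limma voom (adjusted p = 0.0573). In the other direction Ly6a, a surface protein anchored by lipid, rose 6.70-fold from a median of 165 to 1346 CPM with no overlap, and Ptges, a prostaglandin synthase, rose 2.08-fold. Plet1, a trophoblast surface protein, rose as well. Without Klf5 siRNA embryos 2 and 4, 5 of the trophectoderm surface and secreted genes fell and 3 rose.

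Keratins 8 and 18 are the intermediate filaments of the first epithelium. Krt8 fell 3.52-fold, from 965 to 2808 CPM (median 1167) to 28.9 to 1051 CPM (median 296), and Krt18 fell 3.37-fold from a median of 1481 to 492 CPM. The groups overlapped for both, and of 4 keratins tested these 2 passed. Krt18 did not pass without scramble embryos 5 and 6 (adjusted p = 0.0625) or without Klf5 siRNA embryos 2 and 4 (adjusted p = 0.0759), and it missed without Klf5 siRNA embryo 4 (0.0602) or 5 (0.0600).

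In the epithelial junctions, members that passed the test fell. Of 15 adherens junction and desmosome genes tested (16 listed), 8 fell and 7 did not pass, and all 15 had a fold change below 0, with a median log2 fold change of -1.01. Cdh1, which encodes E-cadherin, was at 63.0 to 187 CPM (median 143) in Klf5 siRNA embryos and 204 to 896 CPM (median 475) in scramble embryos. Cdh1 did not overlap between groups and fell 3.86-fold (log2 fold change -1.95 ± 0.35 SE, adjusted p = 0.000873). Dsp, the desmosomal linker to keratin, fell 5.62-fold from a median of 295 to 22.6 CPM. Dsc2, a desmosomal cadherin, fell 7.69-fold with no overlap, and Jup, which encodes plakoglobin, 2.67-fold. Ctnna1, Ctnnd1, Pkp2 and Epcam made up the 8. With an offset for transcript length, or without Klf5 siRNA embryos 2 and 4, 5 of the adherens junction and desmosome genes fell, and the median transcript length of the list was 4384 bases.

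Tight junctions seal the trophectoderm so that fluid can collect. Of 13 tight junction genes tested, 4 fell and 9 did not pass, with a median of -0.69. Tjp1, the scaffold ZO-1, fell 3.00-fold from a median of 20.1 to 6.50 CPM (adjusted p = 0.0116). Marveld2 (tricellulin, 2.78-fold) and Ocln (occludin, 2.40-fold) fell, and Ocln missed with the length offset (adjusted p = 0.0749) and without Klf5 siRNA embryo 2, 4 or 5 (0.0566 to 0.0601). Cgn (cingulin, fold change 1.18 higher, adjusted p = 0.695) and Cldn4 (1.46 lower, adjusted p = 0.616) did not pass. Without scramble embryos 5 and 6, or without Klf5 siRNA embryos 2 and 4, 2 of the tight junction genes fell.

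Of 12 blastocoel pump and channel genes tested (16 listed), 3 fell (25.0%) and 9 did not pass. The share that fell over all genes tested was 7.74%. Slc9a3r1, a scaffold that holds transporters at the apical membrane, fell 3.65-fold with no overlap, from a median of 113 to 34.4 CPM (adjusted p = 0.00119). Aqp3, a water and glycerol channel, fell 2.81-fold from a median of 86.4 to 26.5 CPM, and Atp1b1, the beta subunit of the sodium pump that drives fluid inward, 1.85-fold. Without Klf5 siRNA embryos 2 and 4, 1 of these genes fell, with Aqp3 at adjusted p = 0.0728 and Atp1b1 at 0.101. Aqp3 also missed without Klf5 siRNA embryo 2, 5 or 6 (0.0535 to 0.0687) and Atp1b1 without embryo 5 (0.0516).

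Of 14 apical cortex and polarity genes tested (16 listed), 7 fell, 1 rose and 6 did not pass, with a median of -0.94. Prkci, the atypical protein kinase C of the apical domain, was at 10.2 to 18.3 CPM (median 12.9) in Klf5 siRNA embryos and 22.1 to 89.1 CPM (median 33.2) in scramble embryos. Prkci fell 2.81-fold (adjusted p = 0.00230), and its partners Pard3 and Pard6b also fell. Ezr, which encodes ezrin of microvilli, fell 2.75-fold and Msn 3.61-fold, and for Prkci, Ezr and Msn the groups did not overlap. Myo6 fell 2.74-fold. Crb3, a short transcript for an apical membrane protein, rose 1.78-fold (adjusted p = 0.0456), but not with the length offset (adjusted p = 0.596) or in 13 of the fits that left out 1 embryo (adjusted p 0.0503 to 0.150). With that offset 4 of the apical cortex and polarity genes fell.

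Of 19 Hippo pathway and YAP target genes tested (22 listed), 1 fell (5.26%), 1 rose (5.26%) and 17 did not pass. Over all genes tested 7.74% fell and 12.0% rose. Without scramble embryos 5 and 6, 3 fell and 2 rose, without Klf5 siRNA embryos 2 and 4, 2 fell and 1 rose, and leaving out 1 embryo gave 0 to 2 in each direction. Lats2, a kinase that restrains YAP, fell 3.85-fold from a median of 16.1 to 5.19 CPM (adjusted p = 0.0279), and missed with the length offset (0.0600) and without scramble embryo 1 or Klf5 siRNA embryo 5 or 6 (0.0518 to 0.0607). Ankrd1, a YAP target low in both groups, was at 0 to 1.95 CPM in scramble and 0 to 25.4 CPM in Klf5 siRNA embryos, and did not pass without Klf5 siRNA embryo 5 (adjusted p = 0.114). Ankrd1 passed the filter on low counts only with Klf5 siRNA embryos, where it is higher, so its call says nothing of the list. Yap1 itself was 1.30-fold lower with adjusted p = 0.377.

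Of 30 inner cell mass and naive pluripotency genes tested, 5 rose (16.7%), 5 fell (16.7%) and 20 did not pass, with a median log2 fold change of -0.34. Over all genes tested 12.0% rose and 7.74% fell. Spic, an ETS factor expressed in blastocysts, was at 97.5 to 607 CPM (median 241) in Klf5 siRNA embryos and 25.5 to 82.9 CPM (median 51.0) in scramble embryos. Spic rose 5.95-fold with no overlap (log2 fold change 2.57 ± 0.35 SE, adjusted p = 0.000108). Dppa3, a maternal-effect factor that protects DNA methylation, rose 2.66-fold from a median of 4136 to 12174 CPM, Dppa4 2.05-fold and Klf2 2.30-fold. Lin28a, an RNA-binding protein that blocks let-7 processing, also rose. Stat3, which carries the LIF signal, fell 2.07-fold with no overlap, from a median of 63.7 to 32.0 CPM (adjusted p = 0.00280). Lifr, the LIF receptor, fell 11.5-fold from a median of 38.7 to 2.93 CPM, and Fgf4 and Sall4 fell. The core factors Pou5f1 (fold change 2.17 higher, adjusted p = 0.0819), Nanog (1.85 higher, adjusted p = 0.0697) and Sox2 (2.12 lower, adjusted p = 0.210) did not pass. Klf2 missed with the length offset (adjusted p = 0.0961) and without Klf5 siRNA embryo 5 (0.116), and Dppa4 without embryo 4 (0.0613). Without scramble embryos 5 and 6, 9 inner cell mass and naive pluripotency genes fell and 4 rose, and without Klf5 siRNA embryos 2 and 4, 3 fell and 2 rose.

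Of 24 primitive endoderm genes tested (27 listed), 3 fell (12.5%) and 21 did not pass, with a median of -0.68 and 20 of 24 below 0. The share that fell over all genes tested was 7.74%. Sox17, an endoderm HMG-box factor, was at 0.0560 to 3.79 CPM (median 1.44) in Klf5 siRNA embryos and 6.97 to 47.0 CPM (median 12.1) in scramble embryos. Sox17 fell 11.3-fold with no overlap (log2 fold change -3.50 ± 0.67 SE, adjusted p = 0.00138). Pdgfra, the PDGF receptor of primitive endoderm, fell 3.68-fold, and Lamc1, a laminin chain, 2.86-fold. Gata6 (1.48-fold lower, adjusted p = 0.293) and Gata4 (3.05-fold lower, adjusted p = 0.122), the GATA factors of the lineage, did not pass. Without the embryo labelled Klf5 siRNA 1, 5 primitive endoderm genes fell and 1 rose, without embryo 5, 5 fell, and with the length offset 4 fell and 2 rose.

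FGF4 from epiblast signals through ERK to primitive endoderm and trophectoderm. Of 20 FGF and ERK feedback genes tested (26 listed), 3 fell (15.0%), 1 rose (5.00%) and 16 did not pass, with a median of -1.17. Over all genes tested 7.74% fell and 12.0% rose. Fgf4 fell 4.33-fold from a median of 10.5 to 1.54 CPM (adjusted p = 0.0491) and Fgf10 3.26-fold (adjusted p = 0.0368). Both missed with the length offset (0.0835 and 0.0758), and in fits that left out 1 embryo Fgf4 missed in 11 (0.0520 to 0.0918) and Fgf10 in 6 (0.0505 to 0.0652). Fgfr2 passed in all of these fits. Ier3, an immediate early gene, rose 15.4-fold from a median of 0.174 to 5.37 CPM, near the counting floor in scramble embryos. It passed the filter on low counts through the Klf5 siRNA embryos, where it is high, so its call says nothing of the list. Of 18 Krueppel-like and Sp factors tested (21 listed), 5.56% rose and 16.7% fell. Klf2 rose, and Klf5, Klf9 (1.64-fold) and Klf13 (1.97-fold) fell. With the length offset the edgeR adjusted p of these 4 was 0.0961, 0.0683, 0.204 and 0.210. Klf9 missed in 12 and Klf13 in 11 of the fits that left out 1 embryo (0.0502 to 0.0924). Klf4 was 1.51-fold lower with adjusted p = 0.240. Among Krueppel-like and Sp factors 5 fell without scramble embryos 5 and 6, and without Klf5 siRNA embryos 2 and 4, 1 did.

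**Figure D2:**
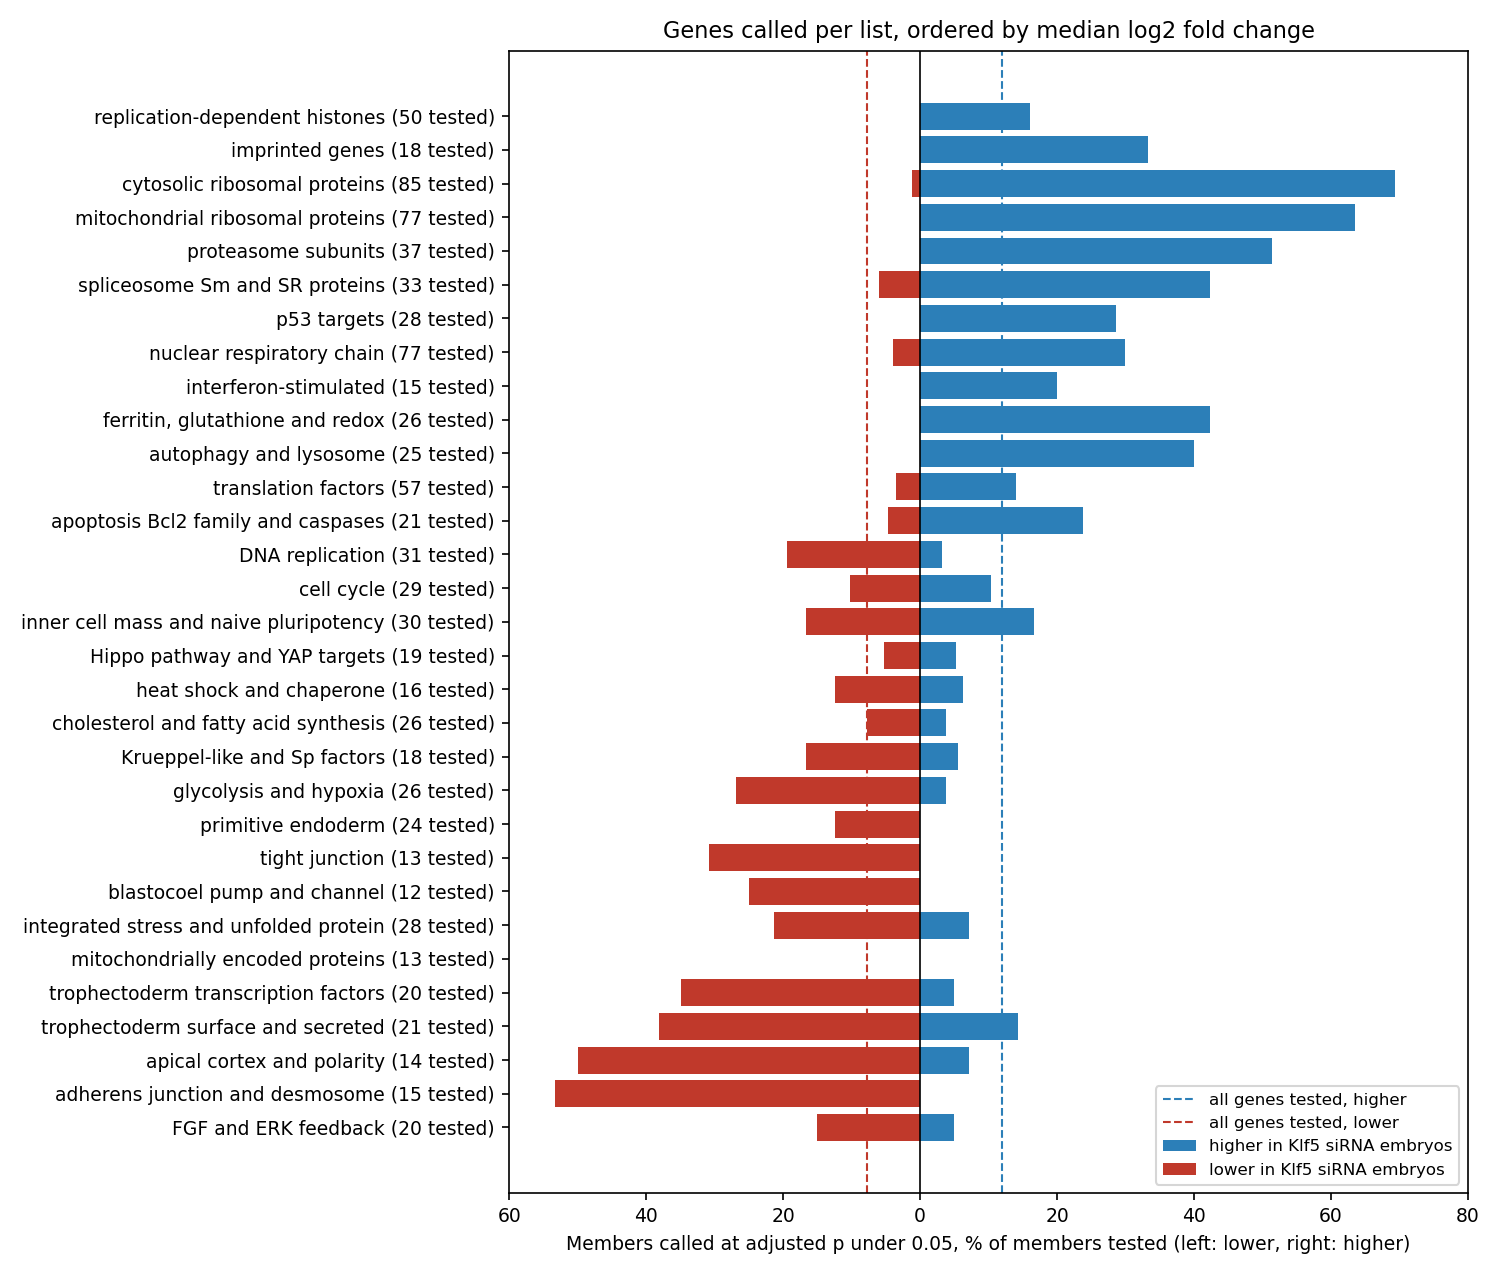
Share of the members tested of each gene list (vertical axis, with the number tested, lists of at least 10) called at adjusted p under 0.05, in percent, with lower to the left in red and higher to the right in blue, and dashed lines at 12.0% and 7.74% for all genes tested. Cytosolic ribosomal proteins reach 69.4% higher and adherens junction and desmosome genes 53.3% lower.

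The p53 factor halts division after damage or stress, and its targets that passed the test rose. Of 28 p53 targets tested (30 listed), 8 rose and 20 did not pass, with a median log2 fold change of 0.65, and with the length offset 9 rose. Ddit4l, an inhibitor of mTOR signalling, was at 43.2 to 184 CPM (median 76.5) in Klf5 siRNA embryos and 2.41 to 22.0 CPM (median 13.6) in scramble embryos. Ddit4l rose 8.41-fold with no overlap (log2 fold change 3.07 ± 0.47 SE, adjusted p = 0.000261). Ccng1, an unusual cyclin that acts on p53 feedback, rose 3.06-fold from 57.8 to 142 CPM to 137 to 467 CPM, and Btg2, an antiproliferative gene, 3.22-fold. Trp53inp1, which promotes autophagy and cell death, rose 3.25-fold from 10.5 to 35.5 CPM to 24.0 to 239 CPM. Bax, Plk2 and Eda2r also rose beside Cdkn1a. Mdm2, the ubiquitin ligase that limits p53 (1.66-fold higher, adjusted p = 0.0682), and Pmaip1, which encodes NOXA (1.98-fold higher, adjusted p = 0.0874), did not pass.

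Of 21 apoptosis genes of the Bcl2 family, caspases and their inhibitors tested (28 listed), 5 rose (23.8%), 1 fell (4.76%) and 15 did not pass, with a median of -0.07. Over all genes tested 12.0% rose and 7.74% fell. Bax, which permeabilises mitochondria, was at 98.6 to 258 CPM (median 124) in Klf5 siRNA embryos against 14.1 to 93.2 CPM (median 44.2). Bax rose 3.38-fold with no overlap (adjusted p = 0.00123). Casp6, an executioner caspase, rose 2.76-fold, and Bad, another promoter of cell death, 2.27-fold, which missed without Klf5 siRNA embryo 4 (adjusted p = 0.0681). Diablo, which antagonises caspase inhibitors, also rose. Birc5, which encodes survivin of the mitotic passenger complex, rose 2.58-fold with no overlap, while Birc2, a caspase-inhibitor family member, fell 3.52-fold with no overlap. The list thus holds risers that promote and that inhibit cell death. Without scramble embryos 5 and 6, or without Klf5 siRNA embryos 2 and 4, 3 of the apoptosis genes fell, beside 5 and 4 that rose. Leaving out 1 embryo gave 3 to 6 that rose and 1 to 2 that fell, and DESeq2 and limma voom called 4 lower.

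Of 29 cell cycle genes tested (30 listed), 3 rose, 3 fell and 23 did not pass, shares near those of all genes (12.0% and 7.74%), with a median of -0.14. Cdkn1a, Ccne2 (cyclin E2, 2.90-fold) and Cdk1 (the mitotic kinase, 1.85-fold) rose. Wee1, the kinase that holds Cdk1 inactive, fell 3.61-fold with no overlap, from 17.8 to 60.2 CPM to 7.06 to 14.9 CPM (adjusted p = 0.000779). Bub1, a spindle checkpoint kinase, fell 2.65-fold, and Plk1 also fell. Of 31 DNA replication genes tested (32 listed), 6 fell, 1 rose and 24 did not pass, with a median of -0.13. The replicative helicase subunit Mcm2 fell 1.97-fold from a median of 82.5 to 43.9 CPM with no overlap (adjusted p = 0.00217), and Mcm3 2.04-fold, with Mcm6 and Mcm7 falling too. Cdt1, which loads that helicase, fell 2.09-fold with no overlap, and Rrm1, of ribonucleotide reductase, 1.92-fold. Tyms, which makes thymidylate, rose 1.83-fold, and missed without Klf5 siRNA embryo 3 or 6 (0.0736 and 0.0642). Rrm1 missed with the length offset (adjusted p = 0.128), under which 5 DNA replication genes fell and 3 rose, and without scramble embryos 5 and 6, 6 fell and 3 rose.

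Ferritin stores iron and glutathione enzymes remove peroxides and reactive compounds. Of 26 ferritin, glutathione and redox genes tested (27 listed), 11 rose and 15 did not pass, with a median of 0.57, and with the length offset 11 also rose. The mean level of the list was 0.62 to 0.97 log2 units above the scramble mean in every Klf5 siRNA embryo, against -0.23 to 0.12 in scramble embryos. Ftl1, the ferritin light chain, rose 3.75-fold with no overlap, from a median of 6415 to 24923 CPM (adjusted p = 4.6e-05). Gpx4, which removes lipid peroxides, rose 2.28-fold from a median of 842 to 2021 CPM with no overlap. Nqo1 (quinone reductase, 8.80-fold, from a median of 0.454 CPM) and Hmox1 (haem oxygenase, 5.07-fold) rose, as did Gclm, Srxn1, Prdx1, Txn1 and the transferrin receptor gene Tfrc.

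Of 25 autophagy and lysosome genes tested, 10 rose and 15 did not pass, with a median of 0.51, and 11 rose with the length offset. Map1lc3a, a second LC3 gene, rose 3.08-fold from a median of 56.8 to 188 CPM (adjusted p = 0.000230). Gabarapl2, of the same ubiquitin-like family, rose 2.16-fold with no overlap, from a median of 3482 to 7678 CPM, and Gabarapl1 3.84-fold from 1.49 to 7.74 CPM. The receptor Sqstm1, the conjugation factors Atg5 and Atg12, and the lysosomal genes Lamp2 and Ctsl also rose. Without Klf5 siRNA embryos 2 and 4, 5 of the autophagy and lysosome genes rose.

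The integrated stress response lowers translation and induces amino acid genes through ATF4. Of 28 integrated stress and unfolded protein genes tested (30 listed), 6 fell, 2 rose and 20 did not pass, with a median of -0.77. Nupr1, a stress-induced chromatin protein, was at 0.291 to 23.8 CPM (median 2.78) in Klf5 siRNA embryos and 24.7 to 93.0 CPM (median 60.8) in scramble embryos. Nupr1 fell 9.86-fold with no overlap (adjusted p = 0.00210). Slc7a5, a transporter of large neutral amino acids, fell 6.32-fold with no overlap, and Trib3, a pseudokinase induced by ATF4, 8.91-fold (edgeR adjusted p = 0.0197, limma voom 0.214). Atf4, the central factor of the response, fell 1.70-fold (adjusted p = 0.0297), and Herpud1, a factor of protein degradation at the reticulum, 3.83-fold. Dnajb9 (4.25-fold, no overlap) and Sdf2l1 (3.03-fold), cofactors of the chaperone BiP, rose. Of the integrated stress and unfolded protein genes 4 rose and 5 fell without scramble embryos 5 and 6. Asns (2.47-fold lower, adjusted p = 0.0741), Ddit3 (1.70-fold lower, adjusted p = 0.314) and Chac1 (4.05-fold lower, adjusted p = 0.310) did not pass. Of 16 heat shock and chaperone genes tested (17 listed), 12.5% fell and 6.25% rose, against 7.74% and 12.0% over all genes tested. The mitochondrial chaperones Hspa9 (1.93-fold) and Hspd1 (1.90-fold) fell. Hspb1, a small heat shock protein, rose 3.36-fold and missed with the length offset (edgeR adjusted p = 0.0679). Among heat shock and chaperone genes 4 fell and 2 rose without scramble embryos 5 and 6.

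More glycolysis and hypoxia genes fell than rose. Of 26 tested (30 listed), 7 fell, 1 rose and 18 did not pass, with a median of -0.61, and 7 fell with the length offset. Ndrg1, a hypoxia-induced gene, fell 4.02-fold with no overlap, from a median of 204 to 58.9 CPM. Vegfa, the vascular growth factor, fell 8.12-fold with no overlap, from a median of 3.94 to 0.582 CPM. The glycolytic enzyme genes Pgk1 (1.96-fold), Gpi1 and Pgam1 fell, as did Slc16a1 and the oxygen sensor Egln1. Slc2a1, the glucose transporter GLUT1, rose 2.19-fold and missed without Klf5 siRNA embryo 5 (adjusted p = 0.0822). Of 26 cholesterol and fatty acid synthesis genes tested (28 listed), 2 fell (7.69%), 1 rose (3.85%) and 23 did not pass. Over all genes tested 7.74% fell and 12.0% rose. Acly (2.17-fold) and Elovl6 (1.77-fold), of fatty acid synthesis, fell, but neither passed with the length offset (adjusted p = 0.0504 and 0.180). Fdps, of the mevalonate pathway, rose 2.39-fold and missed without Klf5 siRNA embryo 3 (adjusted p = 0.125), where 5 genes of the cholesterol and fatty acid synthesis list fell. Without Klf5 siRNA embryos 2 and 4 all 3 missed (edgeR adjusted p = 0.0558 for Acly, 0.108 for Elovl6 and 0.0530 for Fdps).

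**Figure D3:**
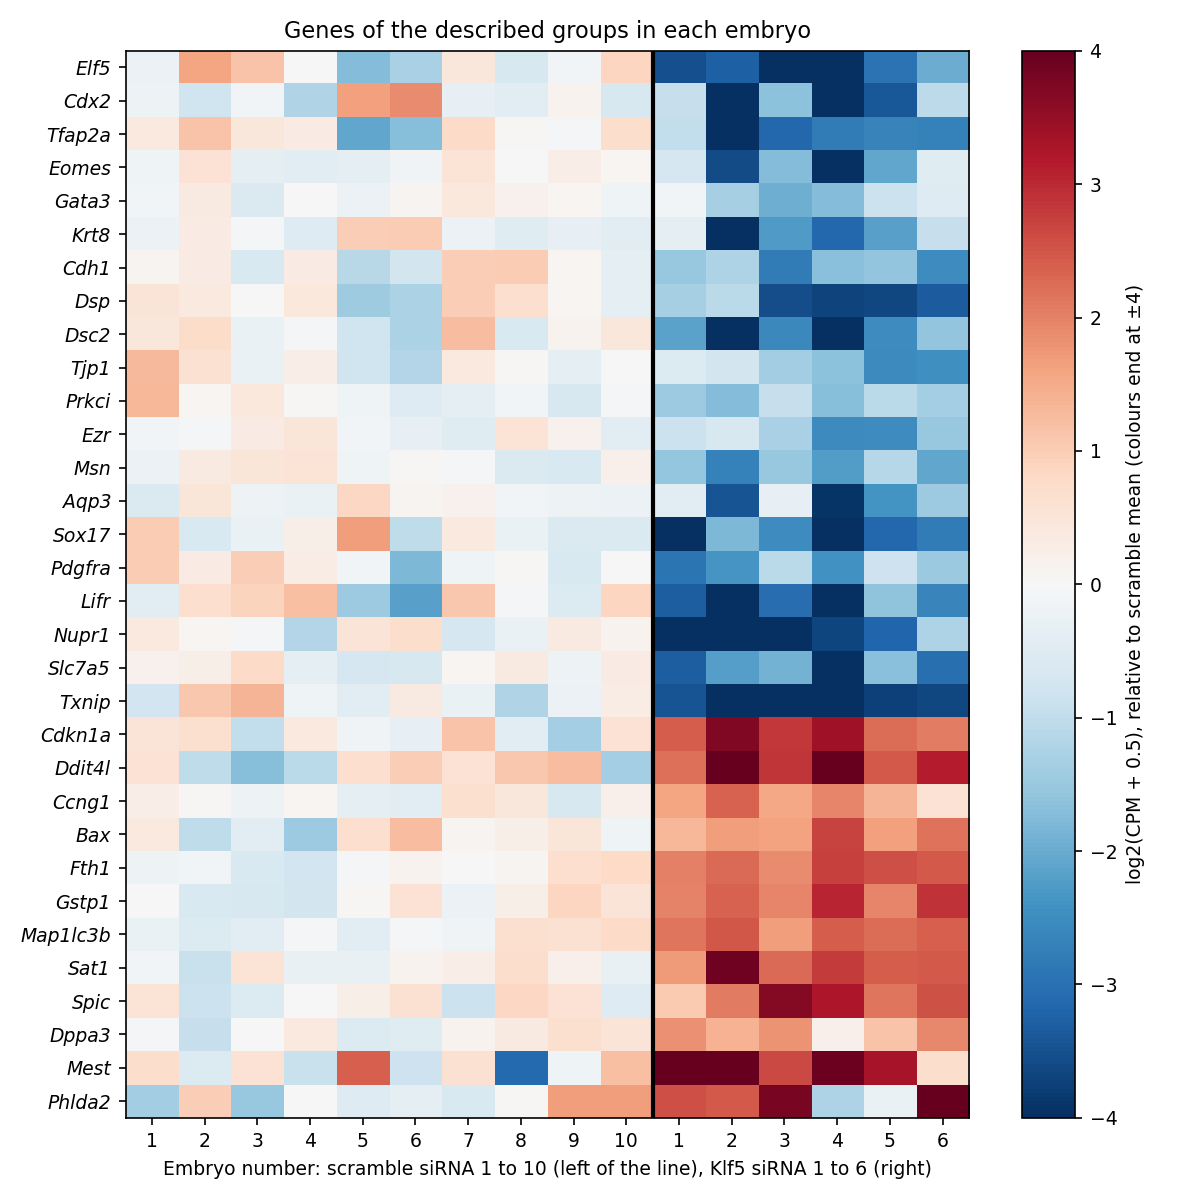
Level of 32 genes of the groups described (rows) in each embryo (columns, scramble 1 to 10 left of the line and Klf5 siRNA 1 to 6 right), as log2(CPM + 0.5) relative to the scramble mean, with colours ending at ±4. Txnip is below every scramble embryo in all Klf5 siRNA embryos, while Phlda2 reaches 66.5 CPM in embryo 6 and is at 0.168 CPM in embryo 4.

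Ribosomal and proteasomal genes had more members higher than all genes tested. Of 85 cytosolic ribosomal protein genes tested (87 listed), 59 rose, 1 fell and 25 did not pass, with a median log2 fold change of 1.06. Rps6, a phosphorylated protein of the small subunit, was at 2090 to 2305 CPM (median 2227) in Klf5 siRNA embryos and 751 to 1307 CPM (median 979) in scramble embryos. Rps6 rose 2.19-fold with no overlap (log2 fold change 1.13 ± 0.17 SE, adjusted p = 0.000261). Rpl13a rose 2.67-fold and Rpl11 2.66-fold, both with no overlap, and Rpl22l1, a paralogue of Rpl22, fell 2.55-fold, which missed without Klf5 siRNA embryo 3, 4 or 6 (0.0536 to 0.0556). With the length offset 27 of the cytosolic ribosomal proteins rose and the median was 0.47. Ribosomal protein genes have near-identical processed pseudogenes, so how estimated counts were split among copies is uncertain.

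Of 77 mitochondrial ribosomal protein genes tested, 49 rose and 28 did not pass, with a median of 0.98, and with the length offset 43 rose and 1 fell (median 0.74). Mrpl22 was at 193 to 614 CPM (median 403) in Klf5 siRNA embryos and 68.2 to 150 CPM (median 124) in scramble embryos. It rose 3.50-fold with no overlap (adjusted p = 4.6e-05), and Mrpl21 (2.94-fold), Mrps24 (2.88-fold) and Mrpl11 (2.74-fold) did so too. Of 37 proteasome subunit genes tested (39 listed), 19 rose and 18 did not pass, with a median of 0.83, and 16 rose with the length offset. With mitochondrial percent as a covariate 12 proteasome subunit genes rose and 3 fell. The core particle subunits Psma2 (2.91-fold), Psmb1 (2.80-fold), Psmb6 (3.05-fold) and Psma5 (3.11-fold) rose with no overlap.

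Of 77 nuclear respiratory chain genes tested, 23 rose (29.9%), 3 fell (3.90%) and 51 did not pass, with a median of 0.64. The median transcript length of the list was 1046 bases. The share that rose was 12.0% over all genes tested and 33.0% in the shortest of 10 length classes of genes (153 to 1196 bases). Ndufs8, a complex I subunit, rose 2.95-fold with no overlap, from a median of 235 to 785 CPM, and Sdha, the flavoprotein of complex II, fell 2.39-fold with no overlap, from 151 to 69.3 CPM (adjusted p = 0.000484). Atp5a1 fell 1.73-fold while Atp5h (2.08-fold) and Atp5o (2.17-fold), of the same ATP synthase, rose. Without Klf5 siRNA embryo 6, 15 nuclear respiratory chain genes rose. With the length offset 4 of the nuclear respiratory chain genes rose and 4 fell, with a median of 0.08, and Atp5h (adjusted p = 0.270) and Atp5o (0.105) missed. Of 13 mitochondrially encoded protein genes 0 passed in edgeR, with 7 lower at an unadjusted p under 0.05, a median of -0.87, and 2 lower in DESeq2 and 8 in limma voom. With the length offset 10 of these fell, 7 without scramble embryos 5 and 6, 6 without Klf5 siRNA embryo 2 and 3 without Klf5 siRNA embryos 2 and 4. mt-Co1 was at 8460 to 29212 CPM (median 12990) in Klf5 siRNA embryos and 12652 to 56621 CPM (median 27304) in scramble embryos (adjusted p = 0.0652).

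Over all genes, the fold change followed transcript length. In the shortest of 10 length classes of genes (median 854 bases) the median log2 fold change was 0.876, with 33.0% of genes higher and 0.812% lower, and in the longest (median 8094 bases) it was -0.338, with 4.63% higher and 10.4% lower. With the offset these medians were 0.117 and 0.0750. Under that offset 1387 genes rose and 653 fell, of which 1087 and 544 were also called without it. What sets the slope was not tested.

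**Figure D4:**
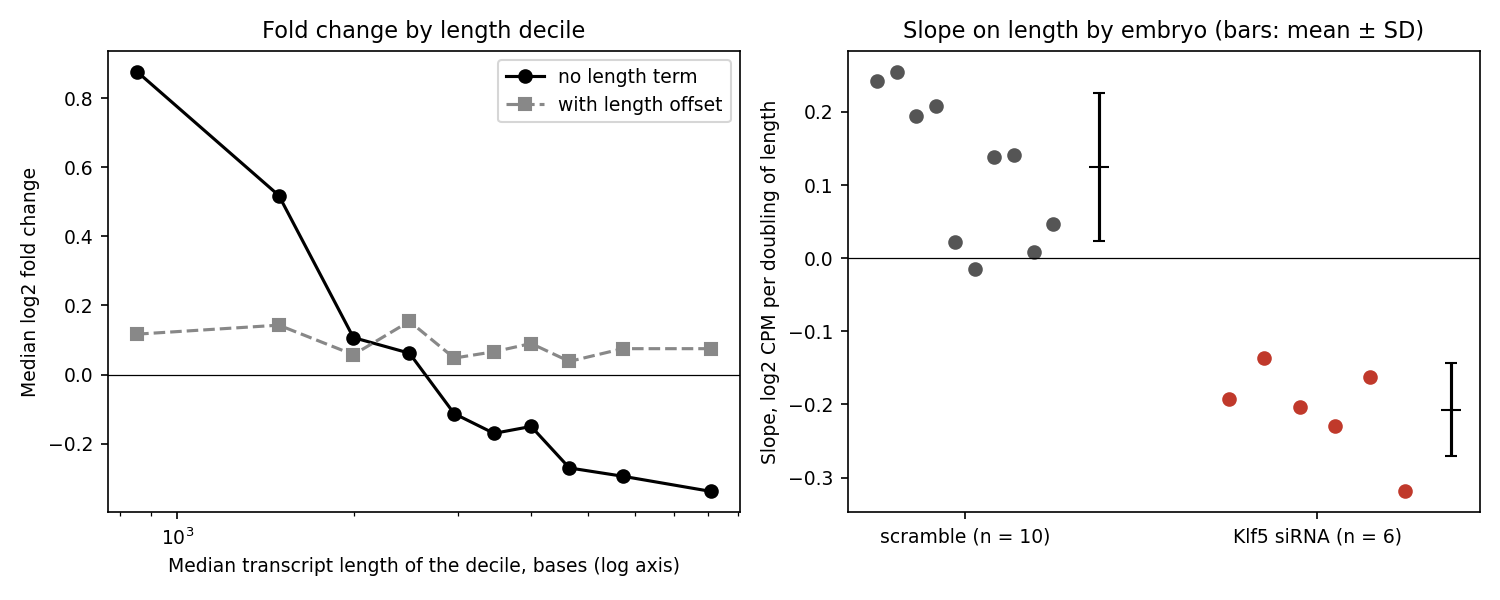
Left, median log2 fold change of each of 10 classes of genes by transcript length (log axis, bases) without (black) and with (grey) the length offset, and right, slope of log2 CPM on length in each embryo with mean ± SD. Medians run from 0.876 to -0.338 without the offset, and the slopes of the 6 Klf5 siRNA embryos (-0.319 to -0.137) lie below those of the 10 scramble embryos (-0.0142 to 0.255).

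Among RNA processing genes, 14 of 33 spliceosome Sm and SR protein genes tested rose, 2 fell and 17 did not pass, with a median of 0.69, and 8 rose with the length offset. Snrpd3 (2.23-fold) and Srsf7 (1.89-fold) rose with no overlap, and the splicing regulator Srsf11 fell 2.35-fold with no overlap. Lsm12 (2.93-fold) and Lsm1 (2.75-fold), Sm-like genes on this list that are not spliceosome subunits, also rose with no overlap. Without Klf5 siRNA embryos 2 and 4, 9 genes of the spliceosome Sm and SR protein list rose. Of 57 translation factor genes, 8 rose, 2 fell and 47 did not pass, with a median of 0.14. Their share that rose was near the 12.0% of all genes tested, and their share that fell was under the 7.74% of all genes. Eif4ebp1, the inhibitor of cap-dependent initiation, rose 2.81-fold with no overlap, from a median of 362 to 1181 CPM. Without scramble embryos 5 and 6, 17 translation factors rose and 6 fell, and with the length offset 13 rose and 2 fell. Without Klf5 siRNA embryos 2 and 4, 6 translation factors rose and 1 fell. With mitochondrial percent as a covariate 6 rose and 9 fell, with a median of -0.04. Of 50 replication-dependent histone genes tested (65 listed), whose messages mostly lack a poly(A) tail, 8 rose (16.0%) and 42 did not pass, with a median of 1.26. The share that rose was 12.0% over all genes tested and 33.0% in the shortest length class of genes. Hist1h2bc rose 10.6-fold with no overlap, from a median of 20.9 to 153 CPM (adjusted p = 5.2e-05). With the length offset, or without Klf5 siRNA embryo 2, 2 of the replication-dependent histones rose, 3 did without embryo 5 or without embryos 2 and 4, 4 did without scramble embryos 5 and 6, and near-identical copies make the split of their counts uncertain.

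The imprinted genes that passed the test rose. Of 18 tested (24 listed), 6 rose and 12 did not pass, with a median of 1.18. Mest, expressed from the paternal copy, was at 139, 168, 26.5, 65.4, 41.7 and 6.52 CPM in Klf5 siRNA embryos 1 to 6 and 0 to 22.1 CPM (median 4.65) in scramble embryos. Embryo 6 lay inside the scramble range, and Mest rose 12.4-fold (log2 fold change 3.63 ± 0.75 SE, adjusted p = 0.00235). Phlda2, which limits placental growth, rose 11.1-fold and missed without Klf5 siRNA embryo 6 (adjusted p = 0.0860) and in limma voom (0.0897). Grb10 (2.86-fold), Impact (2.67-fold, missed without Klf5 siRNA embryo 2, 0.105), Peg10 and Ascl2 also rose. Without Klf5 siRNA embryos 2 and 4, 2 of the imprinted genes rose and the median was 0.62. Leaving out scramble embryos 5 and 6, 6 rose and 2 fell.

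Of 21 genes of the 2-cell-like state listed, 6 passed the filter on low counts, which keeps genes that are high in either group, so the number called says nothing of the list. Arg2, a mitochondrial arginase, was at 0 to 2.93 CPM in scramble embryos and 0.0560 to 30.6 CPM in Klf5 siRNA embryos, where it was 20.7-fold higher. Sp110 rose 3.60-fold, which missed without Klf5 siRNA embryo 3 (adjusted p = 0.157). Zscan4d, a defining marker, was under the filter, at 0 to 0.0489 CPM in scramble and 0 to 3.49 CPM in Klf5 siRNA embryos. Of 15 interferon-stimulated genes tested (24 listed), 3 rose (20.0%) and 12 did not pass. The share that rose over all genes tested was 12.0%. Mx1, an antiviral GTPase, rose 3.27-fold with no overlap, from a median of 2.65 to 9.32 CPM. Bst2 (tetherin, 2.59-fold) and B2m (the light chain of MHC class I, 3.53-fold) rose, and neither passed with the length offset (adjusted p = 0.283 and 0.0825).

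Markers of other cells that a tube could hold were low, and a few moved with the group. Summed over 18 fibroblast and blood cell markers, levels were 11.4 to 25.5 CPM in scramble and 26.8 to 198 CPM in Klf5 siRNA embryos. Only 6 of these passed the filter on low counts, Thy1 and Hba-a1 through the Klf5 siRNA embryos where they are high, so a count of those called says nothing of the list. Thy1, a surface protein of fibroblasts and T cells, was at 0 to 1.48 CPM in scramble and 0.432 to 21.9 CPM in Klf5 siRNA embryos. Hba-a1, an alpha globin with the near-identical copy Hba-a2, was at 0 to 1.21 CPM and 3.72 to 8.28 CPM. Vim (vimentin) reached 138 CPM in Klf5 siRNA embryo 5 and missed in 9 of the fits that left out 1 embryo (0.0518 to 0.692, the last without embryo 5). The defining markers Col1a1, Col1a2, Col3a1, Dcn, Lum, Ptprc and Hbb-bt were at or under 0.692 CPM in all embryos. Summed granulosa and cumulus cell markers (15 listed, 3 at 0 in all embryos) stood at 4.22 to 55.9 CPM in scramble and 6.48 to 19.5 CPM in Klf5 siRNA embryos, and Fshr, Amh and Ptx3 were at 0. Of 3 granulosa and cumulus cell markers tested 0 passed in edgeR, 0 at an unadjusted p under 0.05, and 0 in DESeq2 or limma voom. Of 20 maternal oocyte genes, 6 passed that filter, among them Zp3, a zona pellucida gene, which reached 8.69 CPM in Klf5 siRNA embryos (adjusted p = 0.0492, 0.0736 with the length offset, and missed in 7 of the fits that left out 1 embryo, 0.0641 to 0.0769). Summed oocyte gene levels were 676 to 2434 CPM in scramble and 511 to 1384 CPM in Klf5 siRNA embryos. The part of these cells in the results above was not tested. Markers of the labelled stage were present in scramble embryos, with Pou5f1 at 15.9 to 140 CPM, Gata6 at 41.8 to 124 CPM and Cdx2 at 14.8 to 132 CPM.

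Klf5 siRNA embryos differed among themselves. For each list the log2 CPM of its tested members was averaged in every embryo, and the scramble mean subtracted, to give a list level. The level of trophectoderm transcription factors was -0.65, -2.42, -1.15, -2.26, -1.25 and -0.38 in Klf5 siRNA embryos 1 to 6, against -0.19 to 0.16 in scramble embryos. Embryos 2 and 4 were lowest and the embryos labelled 1 and 6, which held the most Klf5 transcript (543 and 292 CPM), were highest. Whether the list level follows the Klf5 level was not tested. Trophectoderm surface and secreted genes had the same extremes, at -2.36 in embryo 2, -1.90 in embryo 4, -0.21 in embryo 1 and 0.04 in embryo 6. Scramble embryos were at -0.69 to 0.31 for that list, so embryos 1 and 6 lay inside their range. Adherens junction and desmosome genes were at -1.77 to -1.01 in the 6 embryos against -0.24 to 0.30 in scramble embryos, and mitochondrial ribosomal proteins at 0.85 to 1.14 against -0.43 to 0.38. In the embryo labelled Klf5 siRNA 1, where Klf5 transcript was not lower, these 2 lists stood at -1.01 and 0.91, ferritin, glutathione and redox genes at 0.73 and p53 targets at 0.76.

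**Figure D5:**
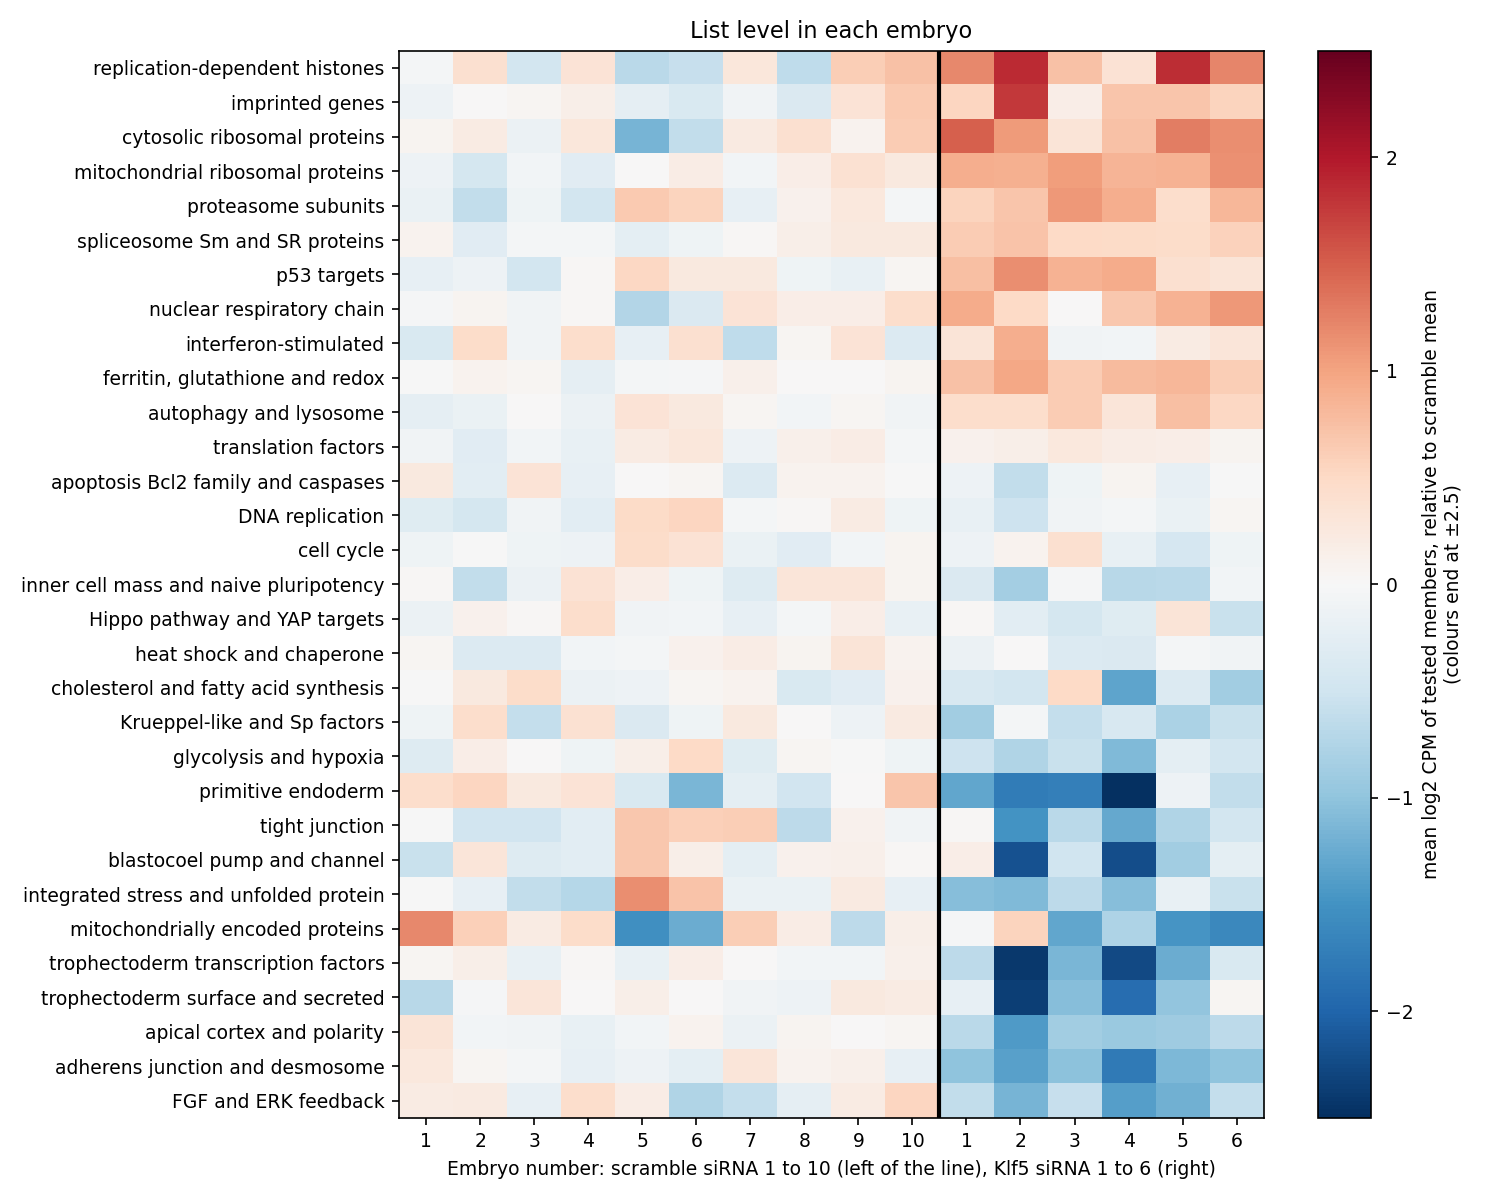
List level (colour, average log2 CPM of tested members minus the scramble mean, ending at ±2.5) in each embryo (columns, scramble 1 to 10 left of the line, Klf5 siRNA 1 to 6 right) for lists with at least 10 members tested (rows). Trophectoderm lists reach -2.42 in Klf5 siRNA embryo 2, while mitochondrial ribosomal proteins lie between 0.85 and 1.14 in all 6.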

How the data were processed

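Estimated counts (expected counts) per Ensembl gene were deposited by the authors with no library normalization, and the submitters' processing notes name kallisto 0.46 and the build mm10. cDNA was made with the SMARTseq-V4 kit per the labels' protocols. How transcripts were summed to genes and with which annotation: not given in the sources used here. The table held 30265 genes, of which 29831 matched a symbol of GENCODE M21 (GRCm38) and 434 did not. Symbols, positions and the longest transcript length came from that annotation, and promoter windows from RefSeq GRCm38.p6. Counts were rounded, which changed no total by more than 0.000756%.

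The 16 embryos were grouped by their labels. Nothing says whether embryos shared a litter. Genes were filtered with filterByExpr (minimum count 10), scaled with TMM and tested with the robust quasi-likelihood test of edgeR 4.0.16 in R 4.3.3, with p adjusted by Benjamini-Hochberg over all 12385 genes and a threshold of 0.05. CPM use scaled library sizes, and the log2 scale adds a prior count of 2. Where a group is at 0, the fold is a bound set by 3 counts in each library, taken against the mean of the other group. Measures of whole libraries were compared by exact permutation of embryo labels. The length offset removes each library's lowess trend (span 0.3) with transcript length. Lists are described by counts of members called and a median, with no list test. The fit was tested on simulated data. Floors cover only counting error, because the libraries were amplified and carry no molecular identifiers that the labels mention.

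The rule for genes in the text took Klf5, Cdx2 and Cdkn1a, the 12 called genes of smallest p in each direction that changed by at least 1 on the log2 scale (predicted genes left out), and in each of 36 lists up to 4 members called in the commoner direction and up to 2 in the other, or the member with the smallest p. Not all are printed, some genes are not reported here, and other list members are given as values. Members, lists and alternatives were chosen with earlier results of these data known, and the ribosomal protein name pattern was narrowed after values were seen, to leave out kinases and a binding protein whose names share its letters. Alternatives were RLE and upper quartile scaling, DESeq2 1.42.0, limma 3.58.1 voom with quality weights, no filter, a test against a 1.5-fold change, the length offset, mitochondrial percent or detected genes as a covariate, each embryo left out, Klf5 siRNA embryos 2 and 4 left out, and a replicate block. Leaving out scramble embryos 5 and 6 was chosen after seeing the data. The stem cell table was not used here.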

Additional observations from a re-analysis of the deposited data

Results flagged for a closer look

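In 391 groups of values (library measures, named genes on the log2 CPM scale and list levels, each in scramble or in Klf5 siRNA embryos), 23 held 1 embryo that lay apart from the others of its group by its gap relative to the group's range. Chance alone gives about 1 such value in 20 groups. Klf5 siRNA embryo 2 held the highest mitochondrial share of its group, at 10.3%. It also stood apart in Cenpm (8.85 log2 CPM), Ptprg (-0.150), Myo6 (3.83) and Hspa9 (7.52), and in the levels of apical cortex and polarity genes (-1.41), imprinted genes (1.77) and maternal oocyte genes (-1.39). Klf5 siRNA embryo 3 stood apart in the ribosomal protein gene Rpl11 (9.55 log2 CPM). The embryo labelled Klf5 siRNA 1 stood apart in Herpud1 (0.480), embryo 4 in Lats2 (-2.66) and embryo 5 in Map1lc3a (6.40).

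Among scramble embryos, embryo 1 stood apart in the levels of trophectoderm surface and secreted genes (-0.690) and of apical cortex and polarity genes (0.330), and embryo 4 in that of ferritin, glutathione and redox genes (-0.230). Embryo 2 stood apart in Rnf7 (6.94 log2 CPM) and Mrpl22 (6.09), embryo 3 in Trib3 (-2.68), embryo 5 in Klf13 (3.55), embryo 8 in Birc2 (5.83) and Mest (-3.29), and embryo 9 in Rpain (5.31) and Snrpd3 (8.55). What set these embryos apart was not tested.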

How the results depend on the processing

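With RLE or upper quartile scaling, no filter, limma voom, the length offset, either covariate and each embryo left out, the counts of genes called stayed within 1.5 times 1489 higher and 958 lower. Leaving out 1 embryo gave 1306 to 1521 higher and 797 to 995 lower. A test against a 1.5-fold change called 647 higher and 300 lower, and DESeq2 called 1499 lower, with a median log2 fold change of 0.104 over all its genes. The Klf5 level difference (-1.07) stayed negative throughout and missed the threshold in the 1.5-fold test (-1.07, adjusted p = 0.143), with the length offset (-0.87, 0.0683), with mitochondrial percent as a covariate (-1.09, 0.0885) and without Klf5 siRNA embryos 2 and 4 (-0.71, 0.131), and with 1 embryo left out it ran from -1.56 to -0.91. Same-numbered embryos share only a number: correlations of their deviations were 0.0288, 0.0325, 0.0531, -0.106, -0.114 and 0.108, and 1 of 6 pairs (number 6) correlated best with its own number. A replicate block in the 12 embryos with shared numbers called 622 higher and 280 lower, with Klf5 at -1.40 (adjusted p = 0.0699), and the same 12 embryos with no block called 949 and 474, with Klf5 at -1.07 (0.0963). Of 154 called genes named by the rule, 49 missed in the 1.5-fold test, 23 with the length offset, 39 with the mitochondrial covariate, 25 without Klf5 siRNA embryos 2 and 4, 15 in limma voom and 0 in DESeq2, and of 149 tested in the 12 embryos, 53 missed with the block and 30 with no block. mt-Co1 reversed to 0.09 with the mitochondrial covariate, whose values include that gene's counts. The cause of the other changes was not tested. Depth limits values near 0.120 to 0.204 CPM.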
